A study of Homo sapiens with 5 samples.

Results

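The p53 binding sites of telomerase-immortalized human BJ fibroblasts were compared between untreated cells and cells exposed to 10 Gy of IR. The members are all sites of the p53 lists, 361 from the untreated library and 3232 from the irradiated one, which makes 3593 of the 43443 sites in the 4 lists of the series. The other lists hold 39850 sites of the histone demethylase JMJD3 in the same cells and are used only for comparison. BJ cells are diploid fibroblasts from human foreskin, and both groups carry hTERT, the catalytic subunit of telomerase, which lets them divide without limit. The irradiated cells were harvested 6 h after exposure by the sample labels and 5 h by the text of the study. Chromatin was pulled down with DO-1, an antibody against the N-terminal part of p53, and the recovered DNA was sequenced (ChIP-seq). With 1 library per condition, no replicate spread stands behind a difference and the conditions were not tested against each other.

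p53 is a transcription factor that binds DNA as a tetramer at response elements in promoters, introns and intergenic sequence. The protein is normally short-lived, because MDM2, itself the product of a p53 target gene, marks it for degradation. IR breaks both strands of DNA, and the kinase ATM, which senses such breaks, acts on p53 and MDM2 so that p53 builds up in the nucleus. In fibroblasts the response is known mainly for cell cycle arrest and senescence.

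A listed site is a stretch of the genome (hg18) where the peak detection found more tags than in an IgG control, given by chromosome, start and end. The width of a site is the length of that stretch and not the length of the bound DNA. The lists hold no heights and no tag totals, so depth is unknown, although the number and the width of detected sites can both change with it. IR and depth cannot be told apart with 1 library each. The only IgG library named in the labels came from untreated cells and was made with rabbit IgG. Intervals are exact 95% counting intervals (Clopper-Pearson for shares, order statistics for medians). They do not cover the variation between cultures, and they are too narrow because neighbouring sites are not independent.

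The site number rose 8.95-fold from the untreated to the irradiated list (95% interval 8.03 to 10.0), whereas the usual width of a site hardly moved. The middle 50% of the untreated sites were 237 to 357 bp wide, with a median of 295 bp, and those after IR 225 to 375 bp, with a median of 288 bp. Both lists start at exactly 200 bp. In untreated cells 30 of 361 sites (8.31%) had this smallest width, and after IR 347 of 3232 (10.7%). The widest site was 777 bp in untreated cells and 1554 bp after IR.

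The sites divide into those listed in both conditions, in one only, or joined. Of the untreated sites, 341 each overlapped a single site after IR that overlapped no other (one-to-one pairs). Another 4 untreated sites lay in 2 wide sites of chromosome 6 after IR, and 16 had no counterpart. On the irradiated side this leaves 2889 sites with no untreated site under them, called IR-only sites here.

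Chromosome by chromosome, p53 sites were more numerous after IR on all 24 chromosomes. Density was counted per 10 Mb of the stretch that the 4 lists span on a chromosome, since chromosome lengths of hg18 were not used here. It was 1.23 sites per 10 Mb in untreated cells and 11.0 after IR over the genome. In untreated cells the density was highest on chromosomes 6 (1.88), 17 (1.78) and 12 (1.67) and lowest on chromosomes 18 (0.659), X (0.664) and 10 (0.667). After IR it was highest on chromosomes 17 (17.0), 19 (16.6) and 20 (14.7) and lowest on chromosomes Y (2.18), X (3.25) and 4 (8.11). Chromosome 17, which carries the p53 gene itself, was thus near the top in both lists, whereas chromosome 6 led the untreated list and lay in the middle after IR.

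The ratio of site numbers, after IR over untreated, had a median of 8.95 over the 24 chromosomes. It was highest on chromosome 10, where 9 untreated sites stood against 146 after IR, a ratio of 16.2 (95% interval 8.31 to 36.2). Chromosome 20 followed with 6 and 91 sites, a ratio of 15.2 (6.71 to 42.4), and chromosome 18 with 5 and 69 sites, a ratio of 13.8 (5.64 to 43.8). It was lowest on chromosome Y, with 2 and 4 sites, a ratio of 2 (0.287 to 22.1). Next came chromosome X with 10 and 49 sites, a ratio of 4.90 (2.45 to 10.8), and chromosome 4 with 26 and 155 sites, a ratio of 5.96 (3.92 to 9.41). The interval of every one of the 24 chromosomes included the ratio of the whole lists, so no chromosome stood apart beyond its counting error. The order rests on few untreated sites and changed when sites under 288 bp, the median width after IR, were left out. Chromosome 10 then had a ratio of 31.5, chromosome 18 of 25, chromosome 20 of 11.7 and chromosome X, of whose 10 untreated sites only 2 were kept, of 14.5. The ratios of chromosomes 10 and 18 were no firmer. Of their untreated sites, only those of 343 and 395 bp on chromosome 10 and that of 292 bp on chromosome 18 were kept.

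**Figure D1:**
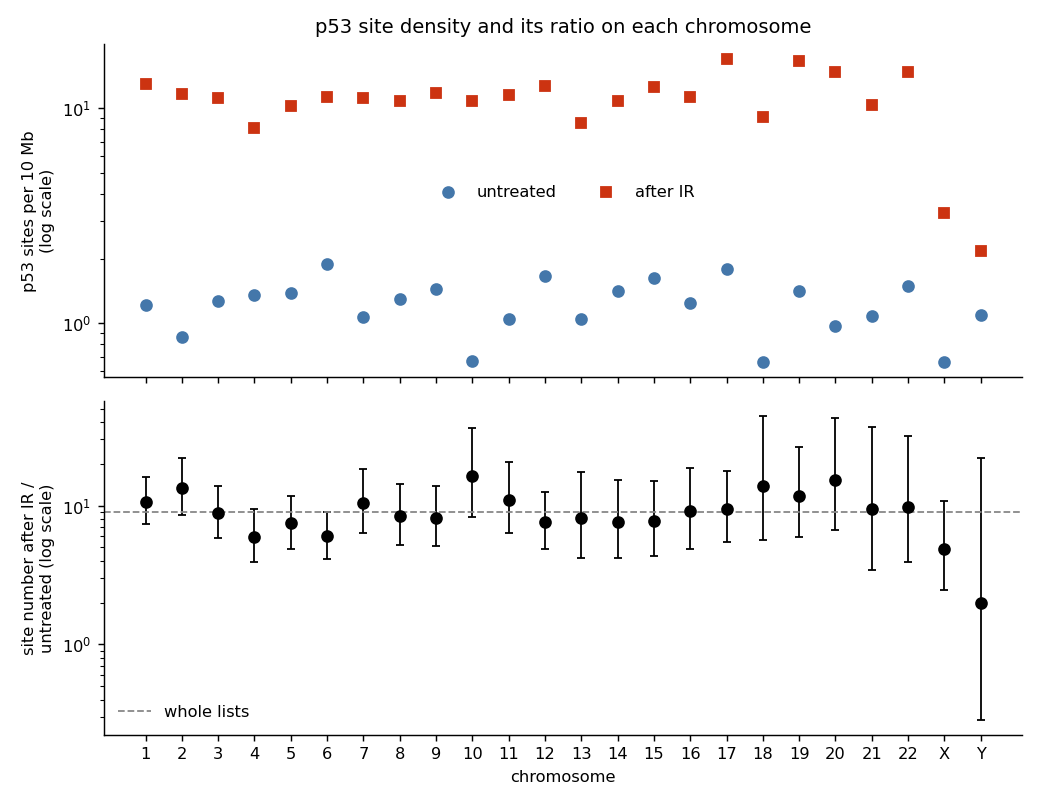
Upper plot, p53 sites per 10 Mb of spanned chromosome (log axis) in untreated cells (circles) and after IR (squares); lower plot, ratio of site numbers with exact 95% counting intervals (log axis) and the ratio of the whole lists as a dashed line. Every square lies above its circle, the X and Y chromosomes have the lowest squares, and every interval crosses the dashed line at 8.95.

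Across the 24 chromosomes, p53 density in untreated cells and after IR had a Spearman rho of 0.46. The untreated densities rest on 2 to 32 sites per chromosome, and how far their counting error bears on this value was not tested. p53 density and JMJD3 density after IR, from far longer lists, had a rho of 0.89 over the 24 chromosomes, with JMJD3 densest on chromosome 19 and p53 on chromosome 17. These points share chromosomes that differ in gene content and in sequence that can be aligned, and they are given as a description.

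Chromosomes 6 and 4 also had the largest shares of sites after IR that were already listed before among the autosomes, 15.6% (30 of 192) and 15.5% (24 of 155). Chromosome 10 had the smallest autosomal share, 5.48% (8 of 146, 95% interval 2.40 to 10.5%). The interval of chromosome 6 was 10.8 to 21.5%, just above that of chromosome 10. Over all chromosomes 343 of 3232 sites after IR were listed before. Chromosomes 6 and 10 were picked as the extremes of 22 autosomes, and the intervals make no allowance for that choice. Their gap is therefore not read as a difference between chromosomes. These shares and the ratios of site numbers rest on the same counts and are not separate evidence.

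Within each list, sites of p53 were far from each other before IR and about 0.2 Mb apart after it. The distance from the centre of a site to the nearest other site of its list had a median of 2.29 Mb in untreated cells (95% interval 1.88 to 2.84 Mb). After IR the median was 194 kb (183 to 204 kb), which is 11.8 times shorter. The middle 50% of sites lay 0.795 to 5.46 Mb from their neighbour in untreated cells and 68.0 to 450 kb after IR. The closest untreated sites were 493 bp apart and the closest after IR 328 bp. A longer list is more closely spaced by its number alone, so the 361 widest sites after IR, all at least 477 bp wide, were compared with the 361 untreated sites. Their median spacing was 1.99 Mb (1.64 to 2.37 Mb), and this interval overlaps that of the untreated list. The lists share sites, since 235 of the 361 widest sites (65.1%) overlapped an untreated site.

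JMJD3 sites were spaced differently from p53 sites in the same cells. Their median spacing was 8.98 kb in untreated cells and 4.04 kb after IR, 2.22 times shorter, although their number increased 7.45-fold. A neighbour within 1 kb was present for 25.2% of JMJD3 sites in untreated cells and for 32.1% after IR. For p53 the corresponding shares were 1.11% (4 of 361) and 1.24% (40 of 3232). Most p53 sites thus had no close neighbour in either condition, whereas a neighbour was frequent for JMJD3. The difference between both proteins was not tested, because each list is 1 library.

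**Figure D2:**
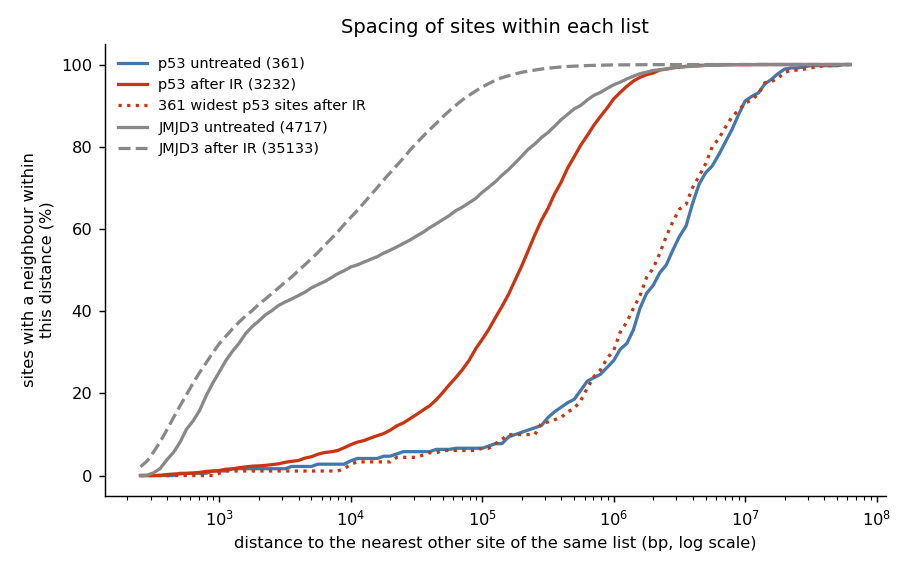
Share of sites (%) with another site of the same list within the distance on the x axis (bp, log scale), for p53 in untreated cells (blue) and after IR (red), the 361 widest p53 sites after IR (dotted red) and JMJD3 (grey). The dotted curve runs beside the blue one, with medians of 1.99 and 2.29 Mb, while all p53 sites after IR have a median of 194 kb and the JMJD3 curves lie far to the left.

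Close groups of p53 sites were uncommon in both lists and took a larger share of the list after IR, which is the longer one. Sites whose centres lay within 10 kb of the next were taken as 1 cluster. In untreated cells there were 6 clusters with 13 sites, 3.60% of the list (95% interval 1.93 to 6.08%). After IR there were 118 clusters with 243 sites, 7.52% of the list (6.63 to 8.48%). Of these, 113 were pairs of sites, 4 held 3 sites and 1 held 5. With a limit of 1 kb the shares were 1.11% (0.303 to 2.81%) and 1.24% (0.886 to 1.68%), so that their intervals overlap. With a limit of 100 kb they were 6.65% (4.31 to 9.73%) and 33.1% (31.5 to 34.8%), the widest gap of the 3 limits. Merging sites within 1 kb of each other lowered the shares at 10 kb to 2.23% (0.970 to 4.36%) and 6.05% (5.25 to 6.93%). A longer list has more sites within a fixed distance by its number alone. Among the 361 widest sites after IR, as many as in the untreated list, the share at 10 kb was 2.77% (1.34 to 5.04%). At 100 kb it was 6.65% (4.31 to 9.73%). At equal number, neither share was above that of the untreated list.

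Of the 118 clusters after IR, 37 (31.4%) held a site that was already listed in untreated cells. Sites in clusters were listed before IR more often than single sites, 42 of 243 (17.3%, 95% interval 12.7 to 22.6%) against 301 of 2989 (10.1%, 9.01 to 11.2%). Over all sites after IR it was 343 of 3232. The same counts, seen from the other side, give 12.2% of the sites listed in both conditions (8.97 to 16.2%) with another site within 10 kb after IR. For the IR-only sites they give 6.96% (6.06 to 7.95%). At other limits the intervals of these groups overlapped. The shares were 1.75% (0.645 to 3.77%) against 1.18% (0.816 to 1.64%) at 1 kb. At 100 kb they were 38.5% (33.3 to 43.9%) against 32.5% (30.8 to 34.2%). Clustered sites had a median width of 304 bp (280 to 330 bp) and single sites of 287 bp (282 to 294 bp), so their widths did not differ beyond the intervals.

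The cluster with the most sites lay on chromosome 6 from 36742694 to 36758610, a stretch of 15.9 kb with 5 sites after IR and 3 in untreated cells. Its sites after IR were 629, 1554, 200, 273 and 437 bp wide in the order of their position, and the first 2 were listed before. The 1554 bp site, from 36751759 to 36753312, is the widest of the list and lay over 2 untreated sites, one of 552 bp and one of 324 bp. The 3 narrower sites that follow it were IR-only. The third untreated site of the stretch lay under the 629 bp site and was 382 bp wide. At this locus, then, all 3 earlier sites lay in wider ones after IR, 2 of them in the same one, and further sites were listed beside them. JMJD3 overlapped 4 of the 5 sites after IR.

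The other clusters of 3 sites lay on 4 chromosomes. On chromosome 16, from 83532040 to 83533310, the sites were 200, 232 and 318 bp wide within 1.27 kb, none was listed before, and JMJD3 after IR overlapped 2 of them. On chromosome 5, from 173688133 to 173695875, a site of 797 bp that was listed before stood next to IR-only sites of 349 and 205 bp, and JMJD3 overlapped 2 of the 3. The cluster on chromosome 17, from 35947816 to 35957569, held IR-only sites of 246, 287 and 240 bp, and no JMJD3 site overlapped them. On chromosome 4, from 78473077 to 78484552, a site of 436 bp listed before was joined by IR-only sites of 347 and 329 bp, again without JMJD3. In each of the 3 clusters of 3 or more sites that held a site listed before, on chromosomes 6, 5 and 4, the widest site was one of those.

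Where p53 was listed in both conditions, its sites were wider after IR without exception. All 341 one-to-one pairs were wider after IR, and none was equal or narrower (95% interval for the share wider 98.9 to 100%). The median width was 301 bp in untreated cells and 539 bp after IR, and the median change was 238 bp (226 to 245 bp), a median ratio of 1.83 (1.76 to 1.87). Changes ranged from 50 to 760 bp. In 325 pairs (95.3%) the gain was over 100 bp, and in 115 (33.7%) the width after IR was at least 2 times the earlier one. The gain stood against nearly equal medians of the whole lists, since the IR-only sites, which make up most of the later list, were narrow.

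The sites widened on both sides. In 339 of 341 pairs the site after IR reached at least as far as the untreated site at both ends. The border of lower coordinate moved outward by a median of 104 bp (95 to 113 bp) and that of higher coordinate by 120 bp (109 to 130 bp). The centre stayed in place, with a median shift of 29.0 bp (26.5 to 34.5 bp), and it moved by 50 bp or less in 235 pairs (68.9%) and by 100 bp or less in 307 (90.0%).

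The gain varied among the classes of earlier width without a steady trend. Over the 341 pairs the widths before and after IR had a Spearman rho of 0.60 (Pearson r 0.67), and the earlier width and the change one of 0.09. These are given as a description, since all pairs come from the same libraries. In the narrowest 25% of the paired untreated sites, up to 241 bp, the median change was 242 bp (220 to 274 bp), in the next 25% 207 bp (173 to 233 bp), in the one after 232 bp (201 to 245 bp) and in the widest 271 bp (241 to 312 bp). The interval of the widest class lay above that of the second. In ratio the narrowest 25% grew most, by a median of 2.11-fold, against 1.67-fold in the widest 25%.

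**Figure D3:**
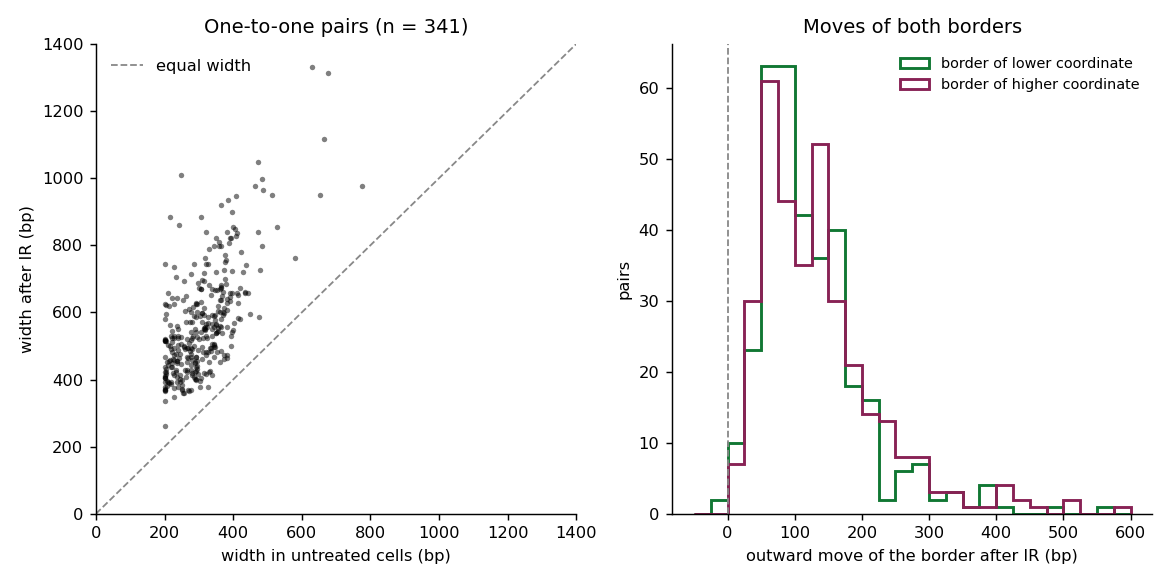
Left, width of each of the 341 paired p53 sites in untreated cells (x, bp) and after IR (y, bp), with equal width as a dashed line; right, number of pairs by the outward move of each border after IR (bp). All 341 points lie above the dashed line, and 2 pairs have a border that moved inward.

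The largest gain, 760 bp, was on chromosome 14 from 50136492 to 50137500, where the width went from 249 to 1009 bp. It was followed by a site on chromosome 1 from 9164038 to 9165368 (631 to 1331 bp) and one on chromosome 20 from 37873732 to 37874616 (216 to 885 bp). The site on chromosome 1 from 179370461 to 179371774 went from 676 to 1314 bp, and the one on chromosome 20 from 29729932 to 29730791 from 241 to 860 bp. These gains were one-sided in part: the first site on chromosome 20 grew by 558 bp at its lower border and by 111 bp at its upper one, and the second site on chromosome 1 by 59 and 579 bp. Of these 5 sites, 3 were under 250 bp in untreated cells and 2 were over 600 bp.

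The smallest gains were 50 to 82 bp. The site on chromosome 12 from 64319673 to 64320050 went from 328 to 378 bp, with 27 bp added at one end and 23 bp at the other. On chromosome 7, from 140214150 to 140214411, the width went from 200 to 262 bp although the lower border lay 24 bp further in. On chromosome 8, from 31149499 to 31149877, it went from 303 to 379 bp with the lower border 5 bp further in. The site on chromosome 17 at 15807785 to 15808199 gained 76 bp, and the one on chromosome 9 at 86043426 to 86043889 gained 82 bp. The sites on chromosomes 7 and 8 are the 2 pairs in which a border moved inward.

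The pairs on chromosome 6 that were left out of these counts also ended in wider sites. Besides the site at 36751759 to 36753312, a site after IR from 151219566 to 151220766, 1201 bp wide, lay over untreated sites of 223 and 594 bp.

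JMJD3 sites listed in both conditions were wider after IR in part. Of 3324 one-to-one pairs of JMJD3, 2248 (67.6%, 95% interval 66.0 to 69.2%) were wider after IR and 1064 were narrower, with a median change of 57 bp (53 to 63 bp). The JMJD3 list after IR reaches down to 125 bp whereas the untreated JMJD3 list, like both p53 lists, starts at 200 bp, so the JMJD3 lists differ from each other in their smallest width. In the 2839 JMJD3 pairs whose site after IR was 200 bp or wider, the median change was 81 bp and the lower quartile 11 bp. All other pairs ended under 200 bp and were narrower by construction, since no untreated JMJD3 site was that narrow. How far the smallest width bears on the remaining narrower pairs was not tested. Among the p53 pairs, the 110 whose site after IR was overlapped by JMJD3 had a median change of 258 bp (226 to 304 bp) and the other 231 one of 230 bp (215 to 240 bp). They had already differed before IR, with median widths of 348 bp (328 to 365 bp) and 281 bp (271 to 293 bp).

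Whether a site after IR had been listed before went closely with its width. None of the 1161 sites of 200 to 249 bp was listed before, which restates the widening above, since no untreated site was under 200 bp and every pair gained at least 50 bp. Of the 560 sites of 250 to 299 bp, 1 was listed before. The share was 3.52% at 300 to 399 bp (30 of 853) and 28.3% at 400 to 499 bp (102 of 361). It reached 58.6% at 500 to 599 bp (92 of 157) and 84.3% at 600 bp or more (118 of 140, 95% interval 77.2 to 89.9%). The narrowest site after IR with an untreated counterpart was 262 bp wide. Among the 50 widest sites after IR, 46 were listed before. Sites after IR listed in both conditions had quartiles of 456, 541 and 652 bp, and IR-only sites of 220, 272 and 349 bp.

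**Figure D4:**
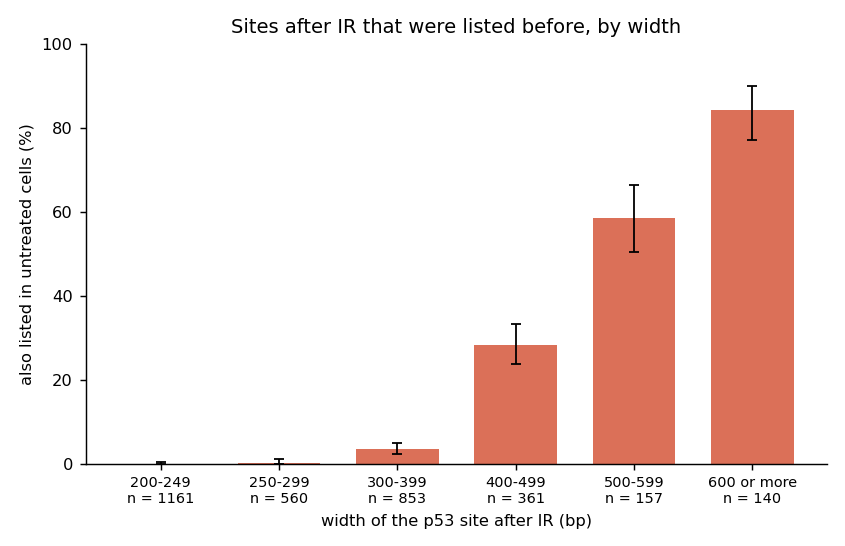
Share of the p53 sites after IR (%) that overlapped a site of untreated cells, by width after IR (bp), with the number of sites in each class and exact 95% counting intervals. The bars rise from 0% of the 1161 narrowest sites to 84.3% of the 140 widest.

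The widest IR-only site, on chromosome 19 from 51328489 to 51329481, measured 993 bp, and the nearest untreated site was 1.10 Mb away. The next were 857 bp wide on chromosome 11 (60821404 to 60822260), 831 bp on chromosome 1 (209817099 to 209817929), 750 bp on chromosome 6 (152676667 to 152677416) and 725 bp on chromosome 2 (220257568 to 220258292). Their nearest untreated sites were 523 kb, 1.02 Mb, 790 kb and 7.78 Mb away, so none of these lay beside an earlier site. JMJD3 after IR overlapped the sites on chromosomes 11 and 1 and not the others.

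The distances from IR-only sites to untreated sites were close to those between the untreated sites themselves. The distance from an IR-only site to the nearest untreated site had a median of 2.53 Mb (95% interval 2.36 to 2.65 Mb), with the middle 50% between 0.855 and 5.63 Mb. The untreated sites lay at a median of 2.29 Mb from each other (1.88 to 2.84 Mb), and both intervals overlap. Within 1 Mb of an untreated site were 802 IR-only sites (27.8%, 26.1 to 29.4%), and 101 of the 361 untreated sites (28.0%, 23.4 to 32.9%) had another untreated site as near. At 100 kb the shares were 4.95% (4.19 to 5.80%) and 6.65% (4.31 to 9.73%). At 10 kb there were 37 IR-only sites (1.28%, 0.903 to 1.76%) and 13 untreated sites (3.60%, 1.93 to 6.08%), a difference that rests on few sites. With untreated sites merged within 1 kb of each other their share was 2.23% (0.970 to 4.36%), and without IR-only sites that lay within 1 kb of an untreated site the share of these was 0.938%. Farther than 10 Mb from any untreated site of their chromosome were 296 IR-only sites (10.2%). With the untreated sites as the base, 35 of 361 (9.70%, 6.85 to 13.2%) had an IR-only site within 10 kb.

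**Figure D5:**
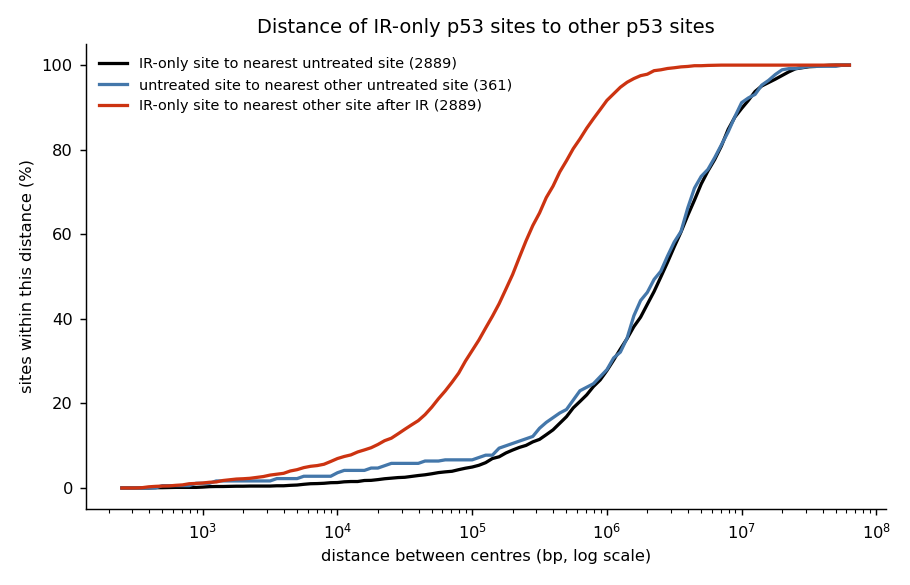
Share of sites (%) within the distance on the x axis (bp between centres, log scale), from IR-only p53 sites to the nearest untreated site (black), from untreated sites to the nearest other untreated site (blue) and from IR-only sites to the nearest other site after IR (red). The black and blue curves run together, with medians of 2.53 and 2.29 Mb, and the red curve has a median of 197 kb.

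The IR-only sites nearest to an untreated site were at most 289 bp wide. The untreated sites beside them were all listed again, as were all but 16 of the 361 untreated sites. On chromosome 6 the site from 36753390 to 36753589, 200 bp wide, lay 407 bp from its neighbour, between centres. On chromosome 1 the site from 205947706 to 205947905, 200 bp wide, lay 417 bp away. The distances were 552 bp on chromosome 4 (188079275 to 188079517, 243 bp wide), 583 bp on chromosome 11 (47192438 to 47192641, 204 bp wide) and 901 bp on chromosome 4 (153400483 to 153400771, 289 bp wide). Of all 2889 IR-only sites only 6 were within 1 kb of an untreated site.

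The 5 most distant IR-only sites were all on chromosome 10, past the last untreated site at 89592807 to 89593201. The farthest, from 134908492 to 134908864, was 373 bp wide and 45.3 Mb from it. The others were 200 bp (131219407 to 131219606), 308 bp (129775457 to 129775764), 397 bp (129551435 to 129551831) and 298 bp wide (127921414 to 127921711), at 41.6 to 38.3 Mb. Width showed no trend with distance beyond the intervals: the median was 296 bp (243 to 347 bp) for the 37 IR-only sites within 10 kb of an untreated site and 277 bp (264 to 287 bp) for the 296 beyond 10 Mb, with 258 to 274 bp in between.

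JMJD3 after IR was listed more often at IR-only sites close to an untreated p53 site. It overlapped 16 of 37 within 10 kb (43.2%, 95% interval 27.1 to 60.5%) and 37 of 106 between 10 and 100 kb (34.9%, 25.9 to 44.8%). It overlapped 126 of 659 (19.1%, 16.2 to 22.3%) between 100 kb and 1 Mb, 347 of 1791 (19.4%, 17.6 to 21.3%) between 1 and 10 Mb and 48 of 296 (16.2%, 12.2 to 20.9%) beyond. The classes within 10 kb and from 10 to 100 kb hold 1.28% and 3.67% of the IR-only sites, that from 1 to 10 Mb 62.0%. Among the 341 one-to-one pairs JMJD3 overlapped 110 of the sites after IR.

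The 16 untreated sites without a counterpart were narrow. Of these, 11 had the smallest width of 200 bp, and the widest was 257 bp. Of the 30 untreated sites of 200 bp, the other 19 were listed again. The nearest site after IR was 8.74 to 2330 kb away, with a median of 289 kb, beside the median spacing of 194 kb within the list after IR. The 5 widest lay on chromosome 4 from 190721323 to 190721579 (257 bp) and 190839759 to 190839999 (241 bp), chromosome 18 at 98221 to 98455 (235 bp), chromosome Y at 11945404 to 11945610 (207 bp) and chromosome 10 at 62868563 to 62868767 (205 bp). Both untreated sites of chromosome Y were among the 16, so none of the 4 sites listed there after IR had been listed before.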

How the data were processed

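The authors aligned the tags of each library to hg18 with Bowtie 0.12.7, keeping unique alignments, and detected peaks with MACS2 against IgG reads. The threshold is not given in the sources used here. The deposited lists hold 3 columns (chromosome, start, end) with no score, so sites could not be ranked by signal.

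Lists were read with pandas 2.3.3 and numpy 2.4.6 in Python 3.11.15, intervals came from scipy 1.17.1 and plots from matplotlib 3.10.9. Overlap means at least 1 bp, distances run between centres, and positions count from 1. The steps were tested on simulated data. The members, measures and lists were chosen with earlier results of these data known. Sites were named by rule: the 5 largest and 5 smallest width changes, 5 clusters with most sites, 5 nearest, 5 farthest and 5 widest IR-only sites, the 5 widest untreated sites without counterpart, and the 3 chromosomes at either end of each order. Width classes, 1 Mb windows and site-free stretches were added after the values were seen. Genes and sequences at the sites need the hg18 genome and were not analysed here.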

Additional observations from a re-analysis of the deposited data

How the results depend on the processing

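Of 31 comparisons of a main value with another setting, 20 stayed within the counting interval of the main value and 11 did not. With the wider 50% of a list, the median spacing was 4.30 Mb in untreated cells and 411 kb after IR, and with as many of the widest sites after IR as there are untreated sites it was 1992 kb. Fewer sites enter by construction. Clustered shares in untreated cells and after IR were 1.11% and 1.24% with a limit of 1 kb and 6.65% and 33.1% with 100 kb. With sites merged within 1 kb they were 2.23% and 6.05%, and among the widest sites after IR the share was 2.77%. The median width change was 197.5 bp when 50% of both widths had to be shared, which leaves 226 of the 341 pairs and drops all pairs that at least reached 2 times their width, the largest ratios, by construction, and all 226 were wider after IR. The median distance of IR-only sites was 5.40 Mb to the wider 50% of the untreated sites, again with fewer sites. The median ratio over chromosomes stayed between 8.81 and 9.33 in the 3 other settings. Of 17 comparisons for single chromosomes, 1 left its interval, the ratio of chromosome X (14.5, from 2 untreated sites) among sites at or over the median width after IR. Under that setting chromosome Y gave no ratio because no untreated site of that width was listed there. The unknown depth limits every comparison between the lists.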

Other observations

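In windows of 1 Mb along the chromosomes, 323 windows held an untreated p53 site and 1632 a site after IR, and 318 held both. At least 5 sites after IR were in 69 of these windows, of which 28 held an untreated site and 41 did not. The densest lay on chromosome 19 between 4 and 5 Mb, with 10 sites after IR, and on chromosome 17 between 35 and 36 Mb, with 9, and neither held an untreated site. The window on chromosome 17 includes the cluster of 3 IR-only sites from 35947816 to 35957569. Another 4 windows held 8 sites each, on chromosomes 1, 5, 9 and 11, of which those on chromosome 9 between 138 and 139 Mb and on chromosome 11 between 61 and 62 Mb included 1 site listed before.

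Long stretches without a p53 site in untreated cells held sites after IR. There were 88 gaps of over 10 Mb between neighbouring untreated sites, and each held at least 1 site after IR, with a median of 14.5 and up to 66. The density after IR over the genome was 11.0 sites per 10 Mb, so sites in gaps of this length are no trait of the gaps. The longest, 63.8 Mb on chromosome 3 from 59759883 to 123595740, held 41 sites after IR, and 53.7 Mb on chromosome 18 from 22294995 to 75991053 held 39. After IR 13 gaps of over 10 Mb were left, the longest on chromosome 9 from 38007612 to 66198147 (28.2 Mb), chromosome 1 from 120261726 to 142721832 (22.5 Mb) and chromosome 16 from 31370851 to 48758284 (17.4 Mb). As background, these 3 chromosomes carry large blocks of repeated sequence beside their centromeres, where tags cannot be aligned to a single place. How much of each gap this covers was not tested.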
